A study of Mus musculus with 8 samples.

Results

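Nacc2, Pebp4 and Zfp787 are 3 mouse genes. On 1 array probe each, their signal was high in normal hematopoietic stem cells (HSCs) and low in HSCs carrying mutant Nras. They were chosen by that difference: their mean log2 processed signal was about 7 lower in both mutant genotypes than in Nras+/+ HSCs. They are 3 of the 27600 gene names on the array, and 6 of its 41174 probes belong to them. Total RNA of bone marrow HSCs from mice of strain B6 was hybridised to 8 Agilent 1-colour arrays, 1 sample per array. The mutant genotypes were NrasG12D/G12D (n = 3), with 2 mutant alleles of the endogenous gene, and NrasG12D/+ (n = 3), with 1 mutant allele. The controls were Nras+/+ HSCs (n = 2), with none. The labels name no other allele, treatment or age, and they do not say how the HSCs were sorted or whether each sample came from its own animal. P-values therefore measure only the spread between these samples, which may be technical.

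Nras is a small GTPase that relays growth factor signals through Raf, MEK and ERK kinases, and the G12D change holds it in its active form. Nacc2 has a BTB domain, through which such proteins pair and recruit partners, and in human cells it represses the gene for MDM2, the ubiquitin ligase of p53, together with the NuRD chromatin complex. Pebp4 belongs to the phosphatidylethanolamine-binding proteins, whose best known member, Pebp1, binds Raf and restrains the kinase cascade. Zfp787 is a nuclear protein with C2H2 zinc fingers, the commonest DNA-binding fold of mammals, and little is established of its targets.

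Each gene was measured by 2 probes of 60 bases, which are shown because the 2 probes of a gene read different stretches of its transcripts and gave different signals. The first of each pair below is the brighter one, on which the gene was picked, and the second is its other probe. Positions are those in the scanner files, which state no genome build. They lie outside the spans of these genes in RefSeq's GRCm38.p6 table, so no exon or UTR is assigned from that build.
Nacc2, chr2:25882188-25882247, minus strand: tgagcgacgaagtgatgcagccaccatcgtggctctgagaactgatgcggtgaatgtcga
Nacc2, other probe, chr2:25875825-25875884, minus strand: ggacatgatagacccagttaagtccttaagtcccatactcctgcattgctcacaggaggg
Pebp4, chr14:68586737-68586796, plus strand: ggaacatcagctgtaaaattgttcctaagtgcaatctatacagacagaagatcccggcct
Pebp4, other probe, chr14:68794788-68794847, plus strand: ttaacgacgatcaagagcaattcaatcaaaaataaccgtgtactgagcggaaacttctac
Zfp787, chr7:5734794-5734853, minus strand: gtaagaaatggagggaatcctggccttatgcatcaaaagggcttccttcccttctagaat
Zfp787, other probe, chr7:5745474-5745533, minus strand: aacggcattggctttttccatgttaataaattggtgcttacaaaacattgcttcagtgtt
The array gives Nacc2 its older symbol, Btbd14a, and Pebp4 a clone name, 1700081D17Rik. The first Pebp4 probe is listed for 2 Pebp4 transcripts, while its other probe is listed for 1 of them. The other Nacc2 probe is listed for 1 cDNA clone and the other Zfp787 probe for 2. The longest run of bases that a first probe shares with a probe of another gene, on either strand, was 13 for Nacc2, 15 for Pebp4 and 13 for Zfp787.

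Across the arrays, 26.0% to 30.3% of spots were well above background in NrasG12D/G12D, 28.5% to 42.4% in NrasG12D/+ and 30.8% to 36.0% in Nras+/+. The HSC markers Fgd5, Ly6a and Slamf1 were well above background on all 8 arrays, Kit, Hlf, Hoxb5 and Mecom on 1 array each, and Gata2, Procr and Tek on none. Some markers of other cells were well above background too. Ms4a1 of B cells, Cd3e of T cells and Csf1r of macrophages were so on all 8 arrays. Col1a1 and Cxcl12 of stroma were so on 6 and Ngp of neutrophils on 3, while Camp, S100a8, Cdh5 and Lepr were on none. Of 5 B cell markers, 2 were detected on all 8 arrays, of 5 T and NK cell markers 1, and of 4 monocyte and macrophage markers 1. Single markers thus do not show that a cell type was present on every array. Some marker sums, in units of the array's 75th percentile, did not overlap the controls in 1 mutant genotype. The 5 neutrophil markers, 3 of them detected, summed to 0.0763 to 0.123 in NrasG12D/G12D, 0.292 to 71.1 in NrasG12D/+ and 0.275 to 0.630 in Nras+/+. The 4 monocyte and macrophage markers, 3 of them detected, summed to 0.137 to 0.378 in NrasG12D/G12D, 0.410 to 1.51 in NrasG12D/+ and 0.485 to 0.506 in Nras+/+. Both lists thus lay below the controls on every NrasG12D/G12D array, as did 22.6% of single genes tested. The 5 T and NK cell markers, all detected on some array, summed to 0.347 to 1.22 in NrasG12D/G12D, 0.186 to 0.714 in NrasG12D/+ and 1.18 to 1.24 in Nras+/+. The 5 endothelial and stromal markers, 3 of them detected, summed to 0.136 to 11.7 in NrasG12D/G12D, 0.166 to 0.678 in NrasG12D/+ and 1.04 to 3.95 in Nras+/+. These 2 lists lay below the controls on every NrasG12D/+ array, as did 15.7% of single genes tested. The sums of the HSC, B cell, erythroid and megakaryocyte lists overlapped those of the controls in both mutant genotypes. The part of any marker list in the results on Nacc2, Pebp4 and Zfp787 was not tested. The brightest Nras probe had unscaled signals of 12, 8.25 and 10.4 in NrasG12D/G12D, 22.5, 27.4 and 18.7 in NrasG12D/+ and 27.7 and 25.3 in Nras+/+. It was well above background on 5 of the 8 arrays, and every other Nras probe on none. Whether it covers the mutated base was not checked, and no difference in Nras was tested. NrasG12D/+ replicate 3 shared slide 2 with all 3 NrasG12D/G12D arrays, and its replicates 1 and 2 shared slide 1 with the controls. Slide and genotype therefore cannot be told apart between NrasG12D/G12D and Nras+/+.

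On its first probe, Nacc2 was bright in both control samples and at background in every mutant sample. The gene's other probe, given below, was dim on the controls too. The first Nacc2 probe had processed signals, which are background-corrected intensities, of 2.45, 2.48 and 3.43 in NrasG12D/G12D, 3.91, 4.99 and 2.20 in NrasG12D/+, and 332 and 255 in Nras+/+. The groups did not overlap: both controls ranked at the 96.8th and 97.5th percentile of their own arrays, and the mutant arrays between the 20.1st and 51.7th. The probe was well above background on both Nras+/+ arrays and on 0 of the 6 mutant arrays, 3 of which carry a surrogate value that the scanner software puts in place of a signal near background. Signals were then put on a log2 scale and each array was set to its own 75th percentile, taken over probes that every array detected well above background. On that scale Nacc2 averaged -6.15 ± 0.59 in NrasG12D/G12D (SD, n = 3), -6.04 ± 0.40 in NrasG12D/+ (SD, n = 3) and 0.97 ± 0.25 in Nras+/+ (SD, n = 2). The difference from Nras+/+ was -7.12 in NrasG12D/G12D and -7.02 in NrasG12D/+, values that chose the gene and are given with no test. All genes tested had a median difference of -0.44 in NrasG12D/G12D and -0.24 in NrasG12D/+, so relative to it Nacc2 lay at -6.68 in NrasG12D/G12D and -6.77 in NrasG12D/+. Mutant signals at background give no exact fold. Each mutant array was therefore counted at the faintest signal of any detected probe on it, or at the Nacc2 signal where higher. So counted, Nacc2 was 36.2-fold lower in NrasG12D/G12D and 48.5-fold lower in NrasG12D/+. These folds are no strict limit, since an undetected probe can lie above that faintest signal, and they depend on the background correction. With normexp background correction and an offset of 50, which lifts signals near background, Nacc2 was at -2.87 in NrasG12D/G12D and -3.05 in NrasG12D/+. In RNA of a bulk sample, fewer cells that express a gene and less RNA per cell cannot be told apart. The 2 Nras+/+ values differed by 0.35 on the log2 scale, and 79.3% of all genes tested differed more between these arrays.

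Pebp4 showed the same high and low arrays on its first probe. Its first probe had processed signals of 2.53, 2.42 and 2.18 in NrasG12D/G12D, 2.25, 1.85 and 5.42 in NrasG12D/+, and 249 and 473 in Nras+/+. Again no mutant array came near a control, and the probe was well above background on both Nras+/+ arrays and on 0 of the 6 mutant arrays. NrasG12D/+ replicate 3 was the highest of the mutant arrays, at the 57.3rd percentile of its array, while the others lay between the 18.2nd and the 28.8th. The scaled log2 signal averaged -6.36 ± 0.43 in NrasG12D/G12D (SD, n = 3), -6.35 ± 1.55 in NrasG12D/+ (SD, n = 3) and 1.21 ± 1.17 in Nras+/+ (SD, n = 2). The difference from Nras+/+ was -7.58 in NrasG12D/G12D and -7.56 in NrasG12D/+, or -7.14 in NrasG12D/G12D and -7.32 in NrasG12D/+ relative to the median of all genes. Counted at the faintest detected signal as for Nacc2, Pebp4 was 42.7-fold lower in NrasG12D/G12D and 57.2-fold lower in NrasG12D/+. The 2 control arrays were 1.66 apart, a gap that 23.1% of genes exceeded. Against Nras+/+ replicate 1 alone the differences were -6.75 in NrasG12D/G12D and -6.73 in NrasG12D/+, and against replicate 2 alone -8.40 in NrasG12D/G12D and -8.39 in NrasG12D/+. Without NrasG12D/+ replicate 3 the NrasG12D/+ difference was -8.46.

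Zfp787 differed from the other two in that its 2 control samples were far apart. Its first probe had processed signals of 28.6, 5.51 and 36.0 in NrasG12D/G12D, 6.21, 24.2 and 3.94 in NrasG12D/+, and 20500 and 172 in Nras+/+. Both controls lay above every mutant array, but replicate 1 stood alone, at the 99.9th percentile of its array, with replicate 2 at the 96.6th. Unlike Nacc2 and Pebp4, Zfp787 was well above background on some mutant arrays, namely NrasG12D/G12D replicates 1 and 3 and NrasG12D/+ replicate 2. The scaled log2 signal averaged -3.45 ± 1.21 in NrasG12D/G12D (SD, n = 3), -4.78 ± 1.19 in NrasG12D/+ (SD, n = 3) and 3.66 ± 4.36 in Nras+/+ (SD, n = 2). The difference from Nras+/+ was -7.12 in NrasG12D/G12D and -8.44 in NrasG12D/+, or -6.68 in NrasG12D/G12D and -8.20 in NrasG12D/+ relative to the median of all genes. This size rests on Nras+/+ replicate 1. Against replicate 2 alone the differences were -4.03 in NrasG12D/G12D and -5.36 in NrasG12D/+, and against replicate 1 alone -10.20 in NrasG12D/G12D and -11.53 in NrasG12D/+. The gap of 6.17 between the controls was exceeded by 1.27% of genes tested, which is 188 genes.

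**Figure D1:**
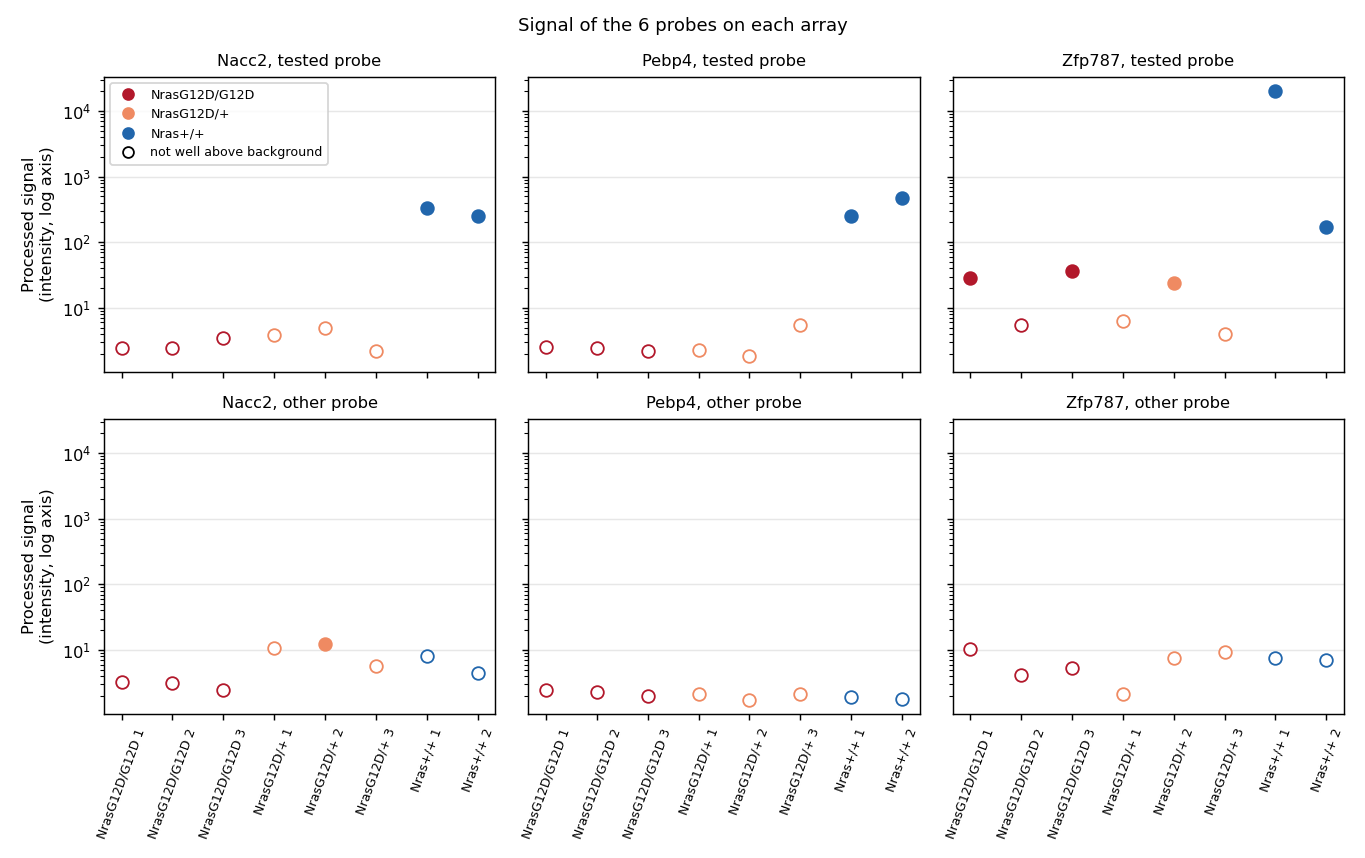
Processed signal (intensity, log axis) of the first, tested probe of each gene (top) and its other probe (bottom) on the 8 arrays, ordered NrasG12D/G12D, NrasG12D/+ and Nras+/+. Open circles are not well above background. The tested probes of Nacc2 and Pebp4 lie at 5.42 or less on every mutant array and at 249 or more on the Nras+/+ arrays, while the other probes stay at 12.2 or less on every array.

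Every mutant array lay below both Nras+/+ arrays for all 3 genes, which the way they were picked favours. The same held for 1189 of 14762 genes tested, or 8.05%. For NrasG12D/G12D by itself the share was 22.6% and for NrasG12D/+ by itself 15.7%, and nothing is read from the 3 genes' count. A tested probe well above background on both controls and on no mutant array was found for 83 genes, 0.562% of genes tested, with Nacc2 and Pebp4 among them.

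Other measures of the same spots were then read. No spot of the 6 probes was saturated or marked as an outlier on any array. The Nacc2 spot had an uncorrected mean of 23.9 to 30.7 on the mutant arrays, beside local backgrounds of 21.5 to 32, and of 368 and 286 on the Nras+/+ arrays, beside backgrounds of 26 and 28. The Pebp4 spot had 20.9 to 29.2 on the mutant arrays and 282 and 508 on the Nras+/+ arrays. On the controls both genes thus stood well over a background that differed little between arrays. The Zfp787 spot had 28.8 to 63.8 on the mutant arrays, and 22200 and 216 on the Nras+/+ arrays. On Nras+/+ replicate 1 its median over 51 pixels was 21962 and its pixel SD was 1090, a variation of 4.91%, so the bright value was even over the spot. The spots that surround each of the 3 on the Nras+/+ arrays had median processed signals between 1.69 and 4.35. The brightest spot around Zfp787 on Nras+/+ replicate 1 had 326, against 20500 in Zfp787 itself.

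**Figure D2:**
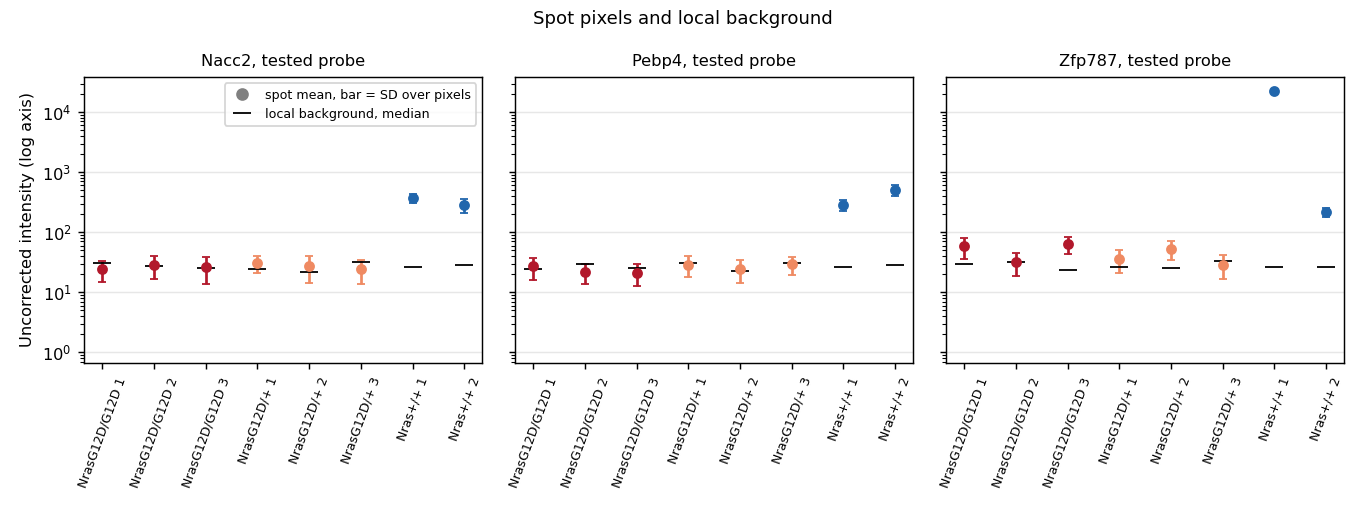
Uncorrected spot intensity (log axis) of the tested probe of each gene on the 8 arrays, as the mean with the SD over pixels, with a black dash for the median local background. The mutant spots of Nacc2 and Pebp4 sit at the level of their background, and the 2 Zfp787 controls, 22200 and 216, are far apart.

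The other probe of each gene was dim on the Nras+/+ arrays as well. The other Nacc2 probe had 3.26, 3.09 and 2.44 in NrasG12D/G12D, 10.9, 12.2 and 5.74 in NrasG12D/+, and 8.22 and 4.48 in Nras+/+. It was well above background on NrasG12D/+ replicate 2 alone, and the NrasG12D/+ and Nras+/+ values overlapped. The other Pebp4 probe had 2.44, 2.33 and 1.97 in NrasG12D/G12D, 2.13, 1.71 and 2.10 in NrasG12D/+, and 1.92 and 1.77 in Nras+/+, a surrogate value on all 8 arrays. The other Zfp787 probe had 10.2, 4.23 and 5.30 in NrasG12D/G12D, 2.12, 7.43 and 9.48 in NrasG12D/+, and 7.56 and 6.92 in Nras+/+, and was well above background on none. These probes were not tested, since none was well above background on at least 2 arrays. They did not show the bright control signal of the first probes, and why the probes of a gene differ was not tested. The bright control signal of each gene thus rests on 1 probe with 1 spot per array.

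Without scaling, the difference from Nras+/+ was -6.72 in NrasG12D/G12D and -6.38 in NrasG12D/+ for Nacc2. It was -7.18 in NrasG12D/G12D and -6.92 in NrasG12D/+ for Pebp4, and -6.72 in NrasG12D/G12D and -7.80 in NrasG12D/+ for Zfp787. None of the 3 thus reached 7 in both genotypes before scaling. On scaled signals 5 genes had a mean at least 7 lower in both, the 3 genes and 2 more. Of the 2, the cDNA AK036733 had 5.76, 2.35 and 4.22 in NrasG12D/G12D, 2.44, 1.79 and 5.59 in NrasG12D/+, and 42200 and 8.78 in Nras+/+, so that 1 control array carried its signal. Ordered by the smaller of the 2 scaled differences, AK036733 lay at 7.70, Pebp4 at 7.56, Zfp787 at 7.12 and Nacc2 at 7.02. Just outside came Rif1 at 6.63, Zfp827 at 6.48 and Arhgap8 at 6.19. Rif1, a regulator of replication timing, had 99700 and 2.40 in Nras+/+, and Zfp827 had 15 and 23400. Arhgap8, a GTPase-activating protein, had 19.8, 169 and 5.31 in NrasG12D/G12D, 72, 434 and 7.95 in NrasG12D/+, and 2770 and 3130 in Nras+/+. Of the genes given here, Nacc2, Pebp4 and Arhgap8 were thus high in both controls, and in Zfp787, AK036733, Rif1 and Zfp827 one control array carried most of the signal.

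**Figure D3:**
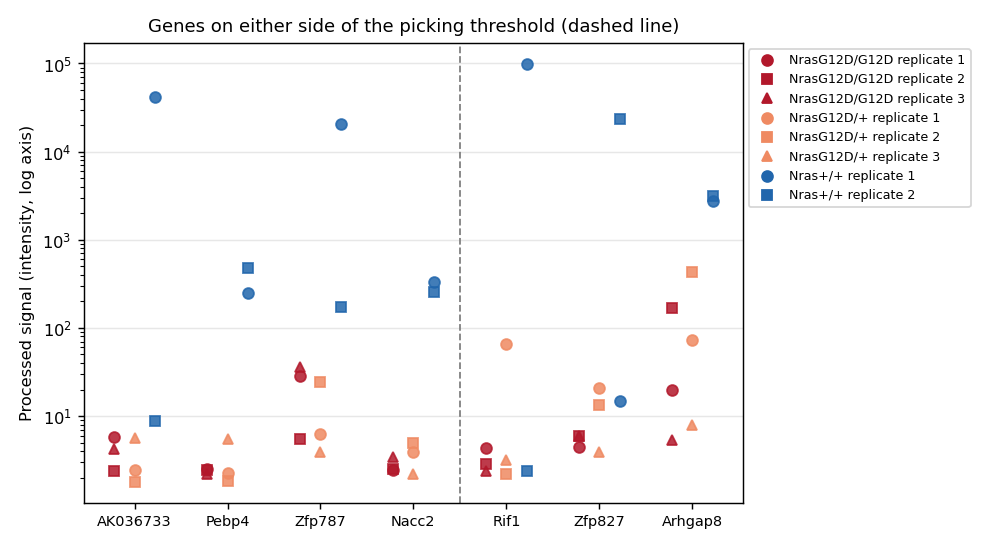
Processed signal (intensity, log axis) on each array of 4 genes inside a threshold of 7 on scaled signals and the 3 next genes outside it (right of the dashed line), with a marker per replicate. Within each gene the NrasG12D/G12D, NrasG12D/+ and Nras+/+ arrays stand from left to right. The paired Nras+/+ points lie close together for Nacc2, Pebp4 and Arhgap8 and far apart for Zfp787, AK036733, Rif1 and Zfp827.

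The difference between the mutant genotypes was not itself the picking value. The rule did ask for a low mean in both, which limits how far they can differ. Nacc2 and Pebp4 passed the filter through the Nras+/+ arrays alone, and 3 and 4 of their 6 mutant values are surrogates. Their results below thus describe signals at background and cannot decide whether the genotypes differ. None of the 3 genes passed, and none of all genes did: limma with Benjamini-Hochberg adjustment called 0 of 14762 genes (0%), with 880 at an unadjusted p under 0.05 (5.96%). Nacc2 was at -0.11 in NrasG12D/G12D minus NrasG12D/+ on the scaled log2 scale (SE 0.63, 95% interval -1.54 to 1.33, limma adjusted p = 0.983). Pebp4 was at -0.01 (SE 0.90, interval -2.06 to 2.03, limma adjusted p = 0.998). For both, the sign turned with other scalings, and both are at background in both genotypes, so no direction is given. Zfp787 was at 1.33 (SE 1.48, interval -2.03 to 4.68, limma adjusted p = 0.881), with arrays of the genotypes overlapping. The intervals leave room for differences in either direction. Within slide 2, which holds both genotypes, the differences were -0.29 for Nacc2, -1.80 for Pebp4 and 1.57 for Zfp787, each resting on 1 NrasG12D/+ array.

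**Figure D4:**
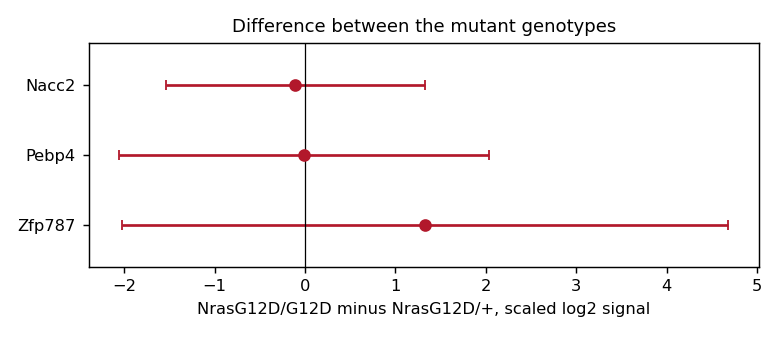
Difference in mean scaled log2 signal, NrasG12D/G12D minus NrasG12D/+, for the 3 genes, with the 95% interval of the limma fit. All 3 intervals cross 0, with estimates of -0.11 for Nacc2, -0.01 for Pebp4 and 1.33 for Zfp787. Nacc2 and Pebp4 are at background in both genotypes.

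Over the 8 arrays, the scaled signals of Nacc2 and Pebp4 correlated at r = 0.971, those of Nacc2 and Zfp787 at 0.865 and those of Pebp4 and Zfp787 at 0.784. These correlations describe genes picked for one shared split between 2 arrays and 6, so they carry no test. Among 14761 other genes, Pebp4 was the one most like Nacc2, followed by Cdk5rap1 (0.965), Myadml2 (0.964), Ajuba (0.960) and the cDNA AK081239 (0.960). Most like Pebp4 were C330024D21Rik (0.984), Cdk5rap1 (0.982), Inka1 (0.982), Kcnab1 (0.977) and Mamstr (0.973). Most like Zfp787 were Trim61 (0.962), Hdgf (0.954), Otop3 (0.941), Cd82 (0.939) and the probe name NAP029143-1 (0.936). An r over 0.9 was reached with 57 genes for Nacc2, 102 for Pebp4 and 28 for Zfp787. Such an r does not measure size. Apart from Pebp4, differences of these like genes from Nras+/+ ran from -1.59 (Myadml2) to -6.04 (NAP029143-1) in NrasG12D/G12D. In NrasG12D/+ they ran from -1.29 to -5.64 for the same 2 genes. Cdk5rap1, C330024D21Rik, Inka1 and Otop3 were well above background on 2 arrays each.

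Genes that work with or resemble the 3 genes were taken as lists. Against Nras+/+, limma called 0 genes in NrasG12D/G12D (0%) and 0 in NrasG12D/+ (0%) of all 14762. At an unadjusted p under 0.05 it had 971 in NrasG12D/G12D (6.58%) and 698 in NrasG12D/+ (4.73%). No member of any list passed. All genes tested had a median difference of -0.44 in NrasG12D/G12D and -0.24 in NrasG12D/+, so most of them had a lower mean too. Of the NuRD complex, the partner of Nacc2, 9 of 13 genes could be tested. In NrasG12D/G12D 8 of them had a lower mean and 1 a higher one, with a median difference of -0.62 against -0.44 over all genes, and in NrasG12D/+ 7 were lower and 2 higher, with a median of -0.73 against -0.24. Mta1, a scaffold of the complex, was at -3.36 in NrasG12D/G12D (SE 1.61) and -1.86 in NrasG12D/+, but its Nras+/+ signals were 71.8 and 1480. Mbd2, which reads methylated DNA, was at -2.28 (SE 1.52) in NrasG12D/G12D and -0.51 in NrasG12D/+. Chd4, the remodelling ATPase, was at -0.07 (SE 0.68) in NrasG12D/G12D and -0.83 in NrasG12D/+. Hdac1, a histone deacetylase, had 35800 on NrasG12D/+ replicate 1 and 68.8 to 157 on every other array.

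Of the BTB repressors and corepressors, 10 of 17 could be tested. Their median was -0.39 in NrasG12D/G12D against -0.44 over all genes, with 8 lower and 2 higher. In NrasG12D/+ it was -0.27 against -0.24, with 6 lower and 4 higher. Zbtb20 was at -1.44 (SE 0.84) in NrasG12D/G12D and -0.45 in NrasG12D/+. Zbtb7a, which steers lymphoid lineage choice, was at -0.17 in NrasG12D/G12D and 1.23 in NrasG12D/+. Bcor, a corepressor of Bcl6, was at -0.24 in NrasG12D/G12D and -0.71 in NrasG12D/+. The p53 pathway was represented by 4 genes. Mdm2, which human NACC2 represses, had 8.45, 6.50 and 6.88 in NrasG12D/G12D, 15.3, 15.9 and 9.87 in NrasG12D/+, and 16.2 and 11.5 in Nras+/+. On these unscaled signals the NrasG12D/G12D arrays lay below both controls and the NrasG12D/+ arrays overlapped them. On the scaled log2 scale all 6 mutant arrays lay below both controls, as in 8.05% of genes tested. Its log2 difference was -1.36 in NrasG12D/G12D (SE 0.67, limma adjusted p = 0.721) and -0.67 in NrasG12D/+ (SE 0.67, limma adjusted p = 0.839). Cdkn1a, the p53 target that arrests the cell cycle, was at 1.47 (SE 1.78) in NrasG12D/G12D and 2.08 in NrasG12D/+. Trp53, which is p53, was at -0.81 in NrasG12D/G12D and 0.06 in NrasG12D/+, and Mdm4, a relative of Mdm2, at -0.33 in NrasG12D/G12D and 0.37 in NrasG12D/+.

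Of the PEBP family and the Raf-MEK-ERK kinases, 10 of 11 genes could be tested, 7 lower and 3 higher in each mutant genotype. Their medians were -0.36 in NrasG12D/G12D and -0.14 in NrasG12D/+, against -0.44 and -0.24 over all genes. Pebp1 had 93.4, 66.5 and 96.0 in NrasG12D/G12D, 354, 130 and 103 in NrasG12D/+, and 122 and 104 in Nras+/+. Its difference was -0.82 (SE 0.70) in NrasG12D/G12D and -0.06 in NrasG12D/+. Mrpl38, a mitochondrial ribosomal protein with a PEBP fold, was at 2.64 (SE 1.48) in NrasG12D/G12D and -0.14 in NrasG12D/+, with 354 on NrasG12D/G12D replicate 1 alone. Map2k1, which is MEK1, was at -2.35 (SE 1.29) in NrasG12D/G12D and -1.29 in NrasG12D/+, and Mapk3, which is ERK1, at -0.16 in NrasG12D/G12D and 0.08 in NrasG12D/+.

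Zfp787 was set beside the genes whose symbol is Zfp and a number, of which 190 of 317 could be tested. In NrasG12D/G12D 142 had a lower mean and 48 a higher one, with a median of -0.72 against -0.44 over all genes. In NrasG12D/+ 115 were lower and 75 higher, with a median of -0.45 against -0.24. At an unadjusted p under 0.05, limma had 15 of the 190 in NrasG12D/G12D, beside 6.58% of all genes tested. It had 8 of the 190 in NrasG12D/+, beside 4.73% of all genes tested. Nothing is read from these counts. Zfp827 was at -7.18 (SE 2.57) in NrasG12D/G12D and -6.48 in NrasG12D/+, resting on 1 control array as above. Zfp982 was at -6.43 (SE 2.59) in NrasG12D/G12D and -3.56 in NrasG12D/+, with Nras+/+ signals of 3460 and 11.2. The brightest of the list, Zfp114 and Zfp13, were at -0.02 and 1.21 in NrasG12D/G12D and at 0.42 and 0.53 in NrasG12D/+.

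**Figure D5:**
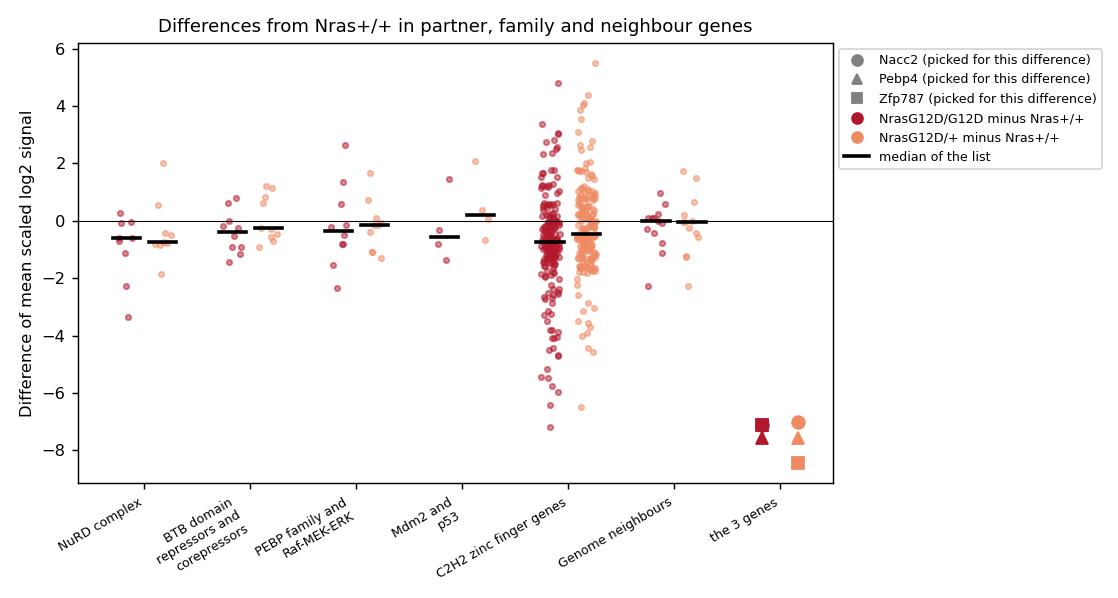
Difference of mean scaled log2 signal from Nras+/+ for each tested gene of the lists, in NrasG12D/G12D (left) and NrasG12D/+ (right), with a black bar for the list's median and the 3 picked genes at the far right. The list medians lie between -0.73 and 0.22, against -7.02 or lower for the 3 genes, which were picked for this difference. The lowest single list gene, Zfp827, is at -7.18 in NrasG12D/G12D and -6.48 in NrasG12D/+.

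Genes beside the 3 on their chromosomes had median differences near 0, where all genes tested had -0.44 in NrasG12D/G12D and -0.24 in NrasG12D/+. RefSeq places Nacc2 at chr2:26055535-26122811, Pebp4 at chr14:69840407-70059918 and Zfp787 at chr7:6131489-6159380 in GRCm38.p6. Of 18 nearest protein-coding neighbours, 13 could be tested, and their median difference was -0.01 in NrasG12D/G12D and -0.04 in NrasG12D/+. Beside Nacc2, Camsap1, which binds microtubule ends, was at -2.27 (SE 1.25) in NrasG12D/G12D and -1.23 in NrasG12D/+. In NrasG12D/G12D the potassium channel gene Kcnt1 was at 0.59, Ubac1 at 0.09, the homeobox gene Lhx3 at -0.29 and Qsox2 at -0.42, and in NrasG12D/+ Kcnt1 was at -0.04, Ubac1 at -0.55, Lhx3 at 0.20 and Qsox2 at -0.04. Beside Pebp4, Bin3 was at -0.79 in NrasG12D/G12D and -2.28 in NrasG12D/+, Tnfrsf10b, a death receptor, at 0.96 in NrasG12D/G12D and 1.51 in NrasG12D/+, and Egr3, an immediate early gene, at 0.11 in NrasG12D/G12D and 1.72 in NrasG12D/+. The others there were Chmp7 at -0.09 in NrasG12D/G12D and -0.01 in NrasG12D/+, Rhobtb2 at -0.01 in NrasG12D/G12D and 0.65 in NrasG12D/+, and Ccar2 at 0.23 in NrasG12D/G12D and -0.44 in NrasG12D/+. Beside Zfp787, Zfp444 was at -1.11 (SE 0.86) in NrasG12D/G12D and -1.28 in NrasG12D/+, and Nlrp4c at 0.08 in NrasG12D/G12D and -0.25 in NrasG12D/+. The genes beside Nacc2, Pebp4 and Zfp787 thus lay on both sides of 0.

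RefSeq promoters, 250 bases before to 50 after the start in GRCm38.p6, were available for Nacc2 and Zfp787 and are shown because both genes were high in the same arrays. Capitals mark matches, on either strand, to the ETS motif CCGGAAGT and the GC box GGGCGG. The E-box CACGTG, the NRF1 motif and the AP-1 motif TGACTCA were searched as well and had no match in these windows.
Nacc2, chr2:26122762-26123061, minus strand: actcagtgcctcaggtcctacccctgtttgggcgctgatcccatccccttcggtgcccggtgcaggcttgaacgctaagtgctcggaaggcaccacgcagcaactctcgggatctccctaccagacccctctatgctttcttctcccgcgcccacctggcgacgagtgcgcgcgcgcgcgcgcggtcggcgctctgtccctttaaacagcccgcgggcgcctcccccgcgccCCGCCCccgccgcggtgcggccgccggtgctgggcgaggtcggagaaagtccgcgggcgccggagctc
Zfp787, chr7:6155916-6156215, minus strand: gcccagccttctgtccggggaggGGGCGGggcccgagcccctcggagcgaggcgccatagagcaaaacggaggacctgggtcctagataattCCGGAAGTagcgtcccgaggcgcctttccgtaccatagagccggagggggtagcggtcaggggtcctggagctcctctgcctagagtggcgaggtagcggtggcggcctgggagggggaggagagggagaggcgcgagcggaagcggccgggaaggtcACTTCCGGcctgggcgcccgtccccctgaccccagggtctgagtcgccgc
The Nacc2 promoter has 71% G and C, 39 CpG and 1 GC box, a motif held by 35.7% of 32851 promoters. The Zfp787 promoter has 70.3% G and C, 27 CpG, 1 GC box and 2 ETS matches, a motif held by 3.89% of promoters. Its window lies inside the RefSeq span of Zfp787, chr7:6131489-6159380, and so is not at the outermost start of that span. Fewer CpG were found in 95.6% of promoters than in that of Nacc2 and in 84.5% than in that of Zfp787, with a median of 7. A second Nacc2 start, at chr2:26092347-26092646, has 4 CpG and none of the 5 motifs. A match describes letters and not a bound site.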

How the data were processed

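Total RNA of HSCs of 3 genotypes was measured on 8 arrays. Per the file headers, the deposited intensities are Agilent Feature Extraction 10.5.1.1 output, corrected for background and spatial trend within an array and left unscaled across arrays. Spot means and local backgrounds, also deposited, are uncorrected intensities. Per the file headers, deposited flags mark spots well above background, saturated or outlying. The deposited value table holds a ratio, which equals the processed signal over the array's median of non-control spots (largest relative deviation 1.7e-06).

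Outlier spots (120 to 464 per array) were set to missing. Log2 processed signals were scaled to each array's 75th percentile over 6576 probes that all 8 arrays detected well above background. Testing a probe required such detection on at least 2 arrays and no missing value on any of the 8. The brightest such probe per gene was kept. With limma 3.58.1 in R 4.3.3 (lmFit, eBayes, two-sided, 1 spread for the 3 groups), 14762 genes were tested, adjusted by Benjamini-Hochberg at 0.05. The precision is limited by the number of arrays. The fit was also run on simulated data with less noise than these data. That run checks the code and says nothing of the power here. Probes were named through RefSeq, 24367 by accession, 6307 by symbol and 2418 by synonym, and 8082 kept the file's name. The genes and lists were chosen with earlier results of these data known. From each list the 2 genes of largest change and the 2 brightest were named, all tested neighbours, the 5 most alike genes, and the genes next to the threshold. A further gene inside the threshold and some markers are not reported here, though counts include them. Other scalings, normexp with an offset of 50, filters, slide and replicate blocks and leaving out each array were tried.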

Additional observations from a re-analysis of the deposited data

Results flagged for a closer look

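The other Nacc2 probe, outside the comparisons because it was well above background on 1 array alone, had a processed signal of 12.2 on NrasG12D/+ replicate 2. The Nras+/+ arrays had 8.22 and 4.48 with this probe, and neither was well above background. Nacc2's first probe had 4.99 on the same NrasG12D/+ array, not well above background. Why the 2 probes of Nacc2 differ was not tested.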

How the results depend on the processing

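Counts of genes called by limma moved from 0 under some settings. For NrasG12D/G12D against Nras+/+ 1 gene was called with quantile normalization and with no filter, and leaving out 1 array gave 0 to 9 genes. For NrasG12D/+ against Nras+/+ 1 gene was called with the percentile over all probes, quantile normalization, the value table and no filter, with 0 to 10 on leaving out 1 array. With the other scalings, the value table and no filter, the 1 gene called was Nacc2 each time. These contrasts picked Nacc2, so such calls are no test of it. The highest counts, 9 in NrasG12D/G12D and 10 in NrasG12D/+, came without Nras+/+ replicate 2. For NrasG12D/G12D against NrasG12D/+ 4 genes were called with the slide as a block (Csk, Hspb6, Jakmip1 and NAP061133-1, named after their values were seen), and leaving out 1 array gave 0 to 2.

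Between the mutant genotypes the sign turned for Nacc2, at 0.22 with the percentile over all probes, 0.0021 with quantile normalization, 0.18 with normexp and 0.34 with the value table. It turned for Pebp4 at 0.31 with the percentile over all probes, 0.012 with the median, 0.20 with normexp and 0.44 with the value table. Leaving out 1 array gave -0.34 to 0.23 for Nacc2, -0.49 to 0.88 for Pebp4 and 0.77 to 1.97 for Zfp787.

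Against Nras+/+, normexp brought the NrasG12D/G12D differences to -2.87 for Nacc2 and -3.12 for Pebp4, and those of NrasG12D/+ to -3.05 for Nacc2, -3.31 for Pebp4 and -5.58 for Zfp787; its offset raises signals near background. Other values were -6.49 for Nacc2 in NrasG12D/G12D with the value table, -6.38 for Nacc2 in NrasG12D/+ with no scaling, and -10.26 for Pebp4 in NrasG12D/G12D with the slide block. Leaving out 1 array gave, in NrasG12D/G12D, -7.33 to -6.79 for Nacc2, -8.40 to -6.75 for Pebp4 and -10.20 to -4.03 for Zfp787. In NrasG12D/+ it gave -7.19 to -6.79, -8.46 to -6.73 and -11.53 to -5.36 for these genes in the same order. Within slide 1, a setting chosen after seeing the data, NrasG12D/+ was at -7.11 for Nacc2, -8.46 for Pebp4 and -8.32 for Zfp787. The filter for probes above background on all 8 arrays left none of the 3 genes.

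Same-numbered mutant arrays deviated from their group means with correlations of 0.04, -0.09 and 0.02, and differently numbered ones with -0.12 to 0.11. So few arrays cannot decide whether the numbers pair the samples, and the labels do not say. With the replicate number as a block, the counts called stayed 0, the differences between the mutant genotypes stayed -0.11 for Nacc2, -0.01 for Pebp4 and 1.33 for Zfp787, and those from Nras+/+ were -7.27, -8.02 and -7.33 in NrasG12D/G12D and -7.17, -8.01 and -8.66 in NrasG12D/+. Mutant signals at background give no exact fold for Nacc2 and Pebp4.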
